A study of Sus scrofa with 48 samples.

Results

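MYC, FOS and JUN are immediate early genes, and their transcripts were sought on the arrays of gluteus muscle (GM), liver and kidney of 16 F2 pigs. Members were the probes whose RefSeq accession belongs to 1 of the 3 genes. MYC was measured by 1 probe (A_72_P165831, designed on the transcript NM_001005154) and JUN by 1 probe (A_72_P178031, on NM_213880). No probe was matched to FOS through a RefSeq accession, and FOS was not analysed here, so the members were 2 genes of the 1862 that could be named. A further 4803 of the 43603 different probes carry Ensembl transcript accessions that were not paired with genes here.

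Immediate early genes are switched on within minutes of a growth factor, cytokine or stress signal, without new protein having to be made first, and their transcripts are short-lived. MYC encodes a transcription factor that pairs with MAX and promotes cell growth, ribosome production and the cell cycle. JUN and FOS encode subunits that pair to form the transcription factor AP-1, which acts downstream of the mitogen-activated and stress-activated kinases. In liver both MYC and JUN are known for their rise when hepatocytes prepare to divide, and in muscle and kidney they are known to respond to exertion, injury and low oxygen.

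There were 8 offspring of the F2 C and 8 of the F2 E line, with 4 barrows (castrated males) and 4 females in each line. The F2 C pigs descend from F0 boars fed a standard diet, and the F2 E pigs from F0 boars whose standard diet was supplemented with methylating micronutrients, namely methionine, choline, betaine, folate and vitamins of the B group. The F1 and F2 pigs of both lines received standard diets, so no pig on these arrays ate the supplement itself. Each pig gave 1 array of each tissue, 48 arrays in all. The pigs had been fasted overnight, stunned and bled at slaughter before the tissues were frozen, so every level is that of tissue taken after death. Their age is not given in the labels, which also name neither sire nor litter. In the paper each line had fewer F1 sires than the 8 pigs measured here, so some pigs of a line shared a sire. In whole tissue, a higher level cannot be told apart from a larger share of cells that hold the transcript.

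The animal numbers in the labels form 2 separate runs, called the lower and the upper series here. Each run had 2 barrows and 2 females of each line. What the series stand for is not stated. The arrays lay on 12 slides of 4 arrays. In GM and kidney each slide held 1 line of 1 number series, and in liver 2 slides held the upper series by line and 2 held the lower series by sex. Tissues never shared a slide, so that tissue and slide cannot be told apart.

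Markers fixed for the tissues separated them as labelled. Of the named markers, 8 of 9 for muscle, 6 of 6 for liver and 4 of 4 for kidney had every array of their tissue above every array of the other tissues, with the muscle factor MYOG as the exception. 3 arrays stood apart from the others of their tissue, all of F2 E pigs. They were the GM array of F2 E replicate 2, with a median correlation of 0.958 with the other GM arrays, and the kidney arrays of F2 E replicates 7 and 5, with 0.954 and 0.953. They came from 3 different pigs, since the replicate numbers of the labels run separately in each tissue. The lowest value among the remaining arrays was 0.970. The median spot signal of each of these 3 arrays was 48, where the other arrays had 50.5 to 88.5 in GM and 100 to 240.5 in kidney. Results that rest on them are given with and without them. Both member probes were well above background on all 48 arrays, and neither was saturated or marked as an outlier.

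The tissues ordered the 2 genes differently. After quantile normalization over all 48 arrays, the log2 signal of MYC in liver had a lowest, median and highest value of 10.14, 11.37 and 12.66 over 16 pigs. In GM these were 9.53, 10.42 and 11.56, and in kidney 7.47, 9.39 and 10.09. MYC was highest in liver, intermediate in GM and lowest in kidney, and no kidney sample reached the lowest liver sample. Its mean was 11.44 ± 0.67 (SD, n = 16) in liver, 10.53 ± 0.50 (SD, n = 16) in GM and 9.22 ± 0.71 (SD, n = 16) in kidney.

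**Figure D1:**
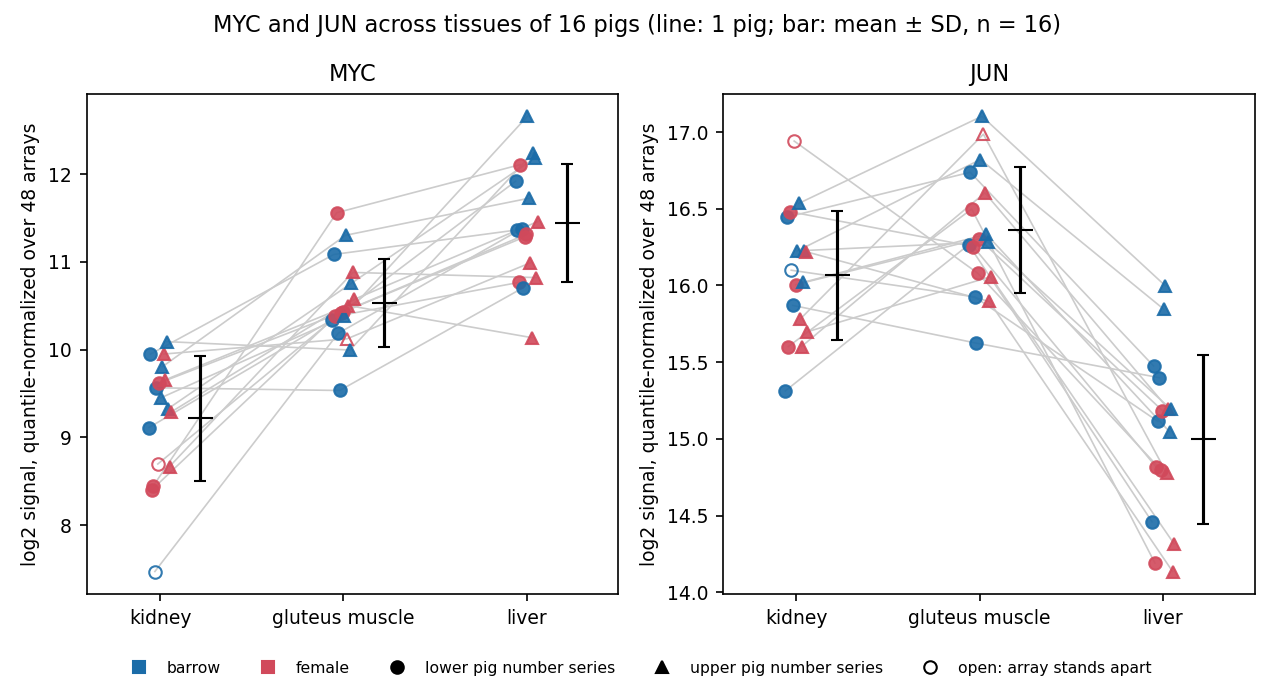
Log2 signal of the MYC and JUN probes (vertical axes, quantile-normalized over 48 arrays) in gluteus muscle, liver and kidney, with each point 1 sample grey lines joining the tissues of a pig and bars for the mean and SD. MYC lay at 10.14 to 12.66 in liver and 7.47 to 10.09 in kidney, whereas JUN lay at 14.14 to 15.998 in liver and 15.31 to 16.94 in kidney.

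Within pigs, MYC was higher in liver than in kidney in 16 of 16, with a log2 difference of 2.22 (SE 0.213, adjusted p = 4.32e-13 in limma) or 4.67-fold. The difference of liver from GM was 0.91 (adjusted p = 0.000174, higher in 14 of 16 pigs) and that of kidney from GM was -1.31 (adjusted p = 3.62e-07, higher in GM in 14 of 16 pigs). The means of both neighbouring pairs in this order differed, while their ranges overlapped. These calls have to be read against the share of probes called at the same limit, which was 70.6% for liver against GM, 75.1% for kidney against GM and 70% for liver against kidney. In size, the difference of MYC between liver and kidney exceeded that of 92.9% of the probes.

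JUN had the reverse position in liver. Its lowest, median and highest log2 signals were 14.14, 15.08 and 15.998 in liver, 15.31, 16.06 and 16.94 in kidney and 15.62, 16.29 and 17.10 in GM. Liver was the lowest tissue in each of the 16 pigs, while the ranges of GM and kidney largely overlapped. Its mean was 16.36 ± 0.41 (SD, n = 16) in GM, 16.07 ± 0.42 (SD, n = 16) in kidney and 15.00 ± 0.55 (SD, n = 16) in liver. The log2 difference of liver from GM was -1.36 (SE 0.148, adjusted p = 1.42e-11 in limma), that of liver from kidney was -1.07 (adjusted p = 1.18e-08) and that of kidney from GM was -0.29 (adjusted p = 0.0683, higher in GM in 11 of 16 pigs).

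The distance of kidney from its neighbours moved with the scaling for JUN and hardly for MYC. With the signals that the scanner software had corrected for background, scaled to the 75th percentile of each array, JUN was lower in kidney than in GM by a log2 difference of -1.47 (adjusted p = 8.42e-11) and the difference of liver from kidney shrank to -0.35 (adjusted p = 0.0592). When the median signal was scaled likewise these were -1.27 (adjusted p = 2.67e-09) and -0.48 (adjusted p = 0.00863), where the median over all probes itself lay at -0.60 for kidney against GM and at 0.38 for liver against kidney. With the background-corrected signals, where the JUN shift was larger, the medians over all probes were only -0.07 and 0.03. Relative to the medians of either scaling the direction of both JUN differences held. Without the 3 pigs whose arrays stood apart, the difference of kidney from GM was -0.37 (adjusted p = 0.0316), and it was also called without 1 of 3 pigs, GM replicates 7 and 8 of F2 E and 3 of F2 C, at -0.33, -0.38 and -0.34. The position of liver below GM held under every scaling, at -1.83 and -1.75, and for MYC the difference of liver from kidney was 2.32 and 2.24.

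Other immediate early genes, taken from a list of 37 of which 15 could be named and 14 were present in the 3 tissues together, divided between the tissues as well. Between liver and GM, 4 were higher in liver and 8 lower, where 35.6% of all probes were higher and 35% lower. Among the lower ones were KLF4, a zinc finger factor, with a log2 difference of -2.08, and NR4A3, an orphan nuclear receptor, with -2.36. Among the higher ones were ID2, an inhibitor of helix-loop-helix factors, with 3.05, and PTGS2, the inducible cyclooxygenase, with 2.30. Between kidney and GM 4 were higher and 7 lower (39.9% and 35.2% of all probes), and between liver and kidney 6 were higher and 4 lower (33.5% and 36.6%). From the lists of AP-1 and its regulators (5 of 25 named), targets of MYC (5 of 19 named) and stress response genes (7 of 22 named), ATF4 and HMOX1 had the values of -3.02 and 3.09 between liver and GM. ATF4 is a partner of AP-1 proteins that acts in the response to amino acid shortage, and HMOX1 is the heme oxygenase. None of the 10 partners of MYC on the list could be named.

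Levels of the 2 genes varied more among pigs of a line than those of most transcripts. The SD of MYC on the log2 scale, pooled over the lines, was 0.52 (GM), 0.68 (liver) and 0.76 (kidney), above those of 91.0%, 96.1% and 93.7% of the probes present in each tissue. For JUN the SD was 0.46 (GM), 0.51 (liver) and 0.39 (kidney), above those of 85.6%, 89.4% and 60.5%. The median SD over all probes was 0.288, 0.293 and 0.343. Each of these SDs spans both number series, which lay on different slides, so it holds differences between slides as well as between pigs. For JUN in GM the slide means were 15.56 and 16.54 in F2 E and 16.05 and 15.73 in F2 C, lower series first. The part of the spread that lay between slides was not tested. In kidney 2 arrays moved the spread of MYC. Without the kidney arrays of F2 E replicates 5 and 7 its SD was 0.51, above that of 87.2% of the probes, against a median over all probes of 0.284. Before normalization the median pixel signal of the MYC probe was 65 on the array of replicate 7 and 141 on that of replicate 5, where the other kidney arrays had 336.5 to 2162.5.

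The comparison of the lines asks whether the diet of the F0 boars was followed by a different level in their F2 descendants. In GM the log2 signal of MYC, normalized within the tissue, had a lowest, median and highest value of 9.04, 9.74 and 10.73 in the F2 C and 8.57, 9.46 and 10.45 in the F2 E offspring. In liver the F2 C values were 10.76, 11.68 and 12.24 and the F2 E values 10.12, 11.29 and 12.67, and in kidney 8.97, 9.79 and 10.67 against 7.96, 10.18 and 10.53. The lines overlapped in every tissue.

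None of the 3 line differences of MYC was called. As a log2 ratio, F2 E stood to F2 C at -0.36 (95% interval -0.86 to 0.14, adjusted p = 0.473 in limma, exact permutation p = 0.198) in GM, -0.34 (adjusted p = 0.817, exact permutation p = 0.334) in liver and 0.11 (adjusted p = 1.00, exact permutation p = 0.781) in kidney. Without the 2 arrays that stood apart, the kidney ratio rose to 0.52 (SE 0.25, unadjusted limma p of 0.0531, adjusted p = 0.888). In kidney 3.89% and in GM 16.1% of the probes had an unadjusted p below 0.05. At an adjusted p below 0.05, 0.769% of the probes were called between the lines in GM, 0.0937% in liver and 0.0119% in kidney.

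**Figure D2:**
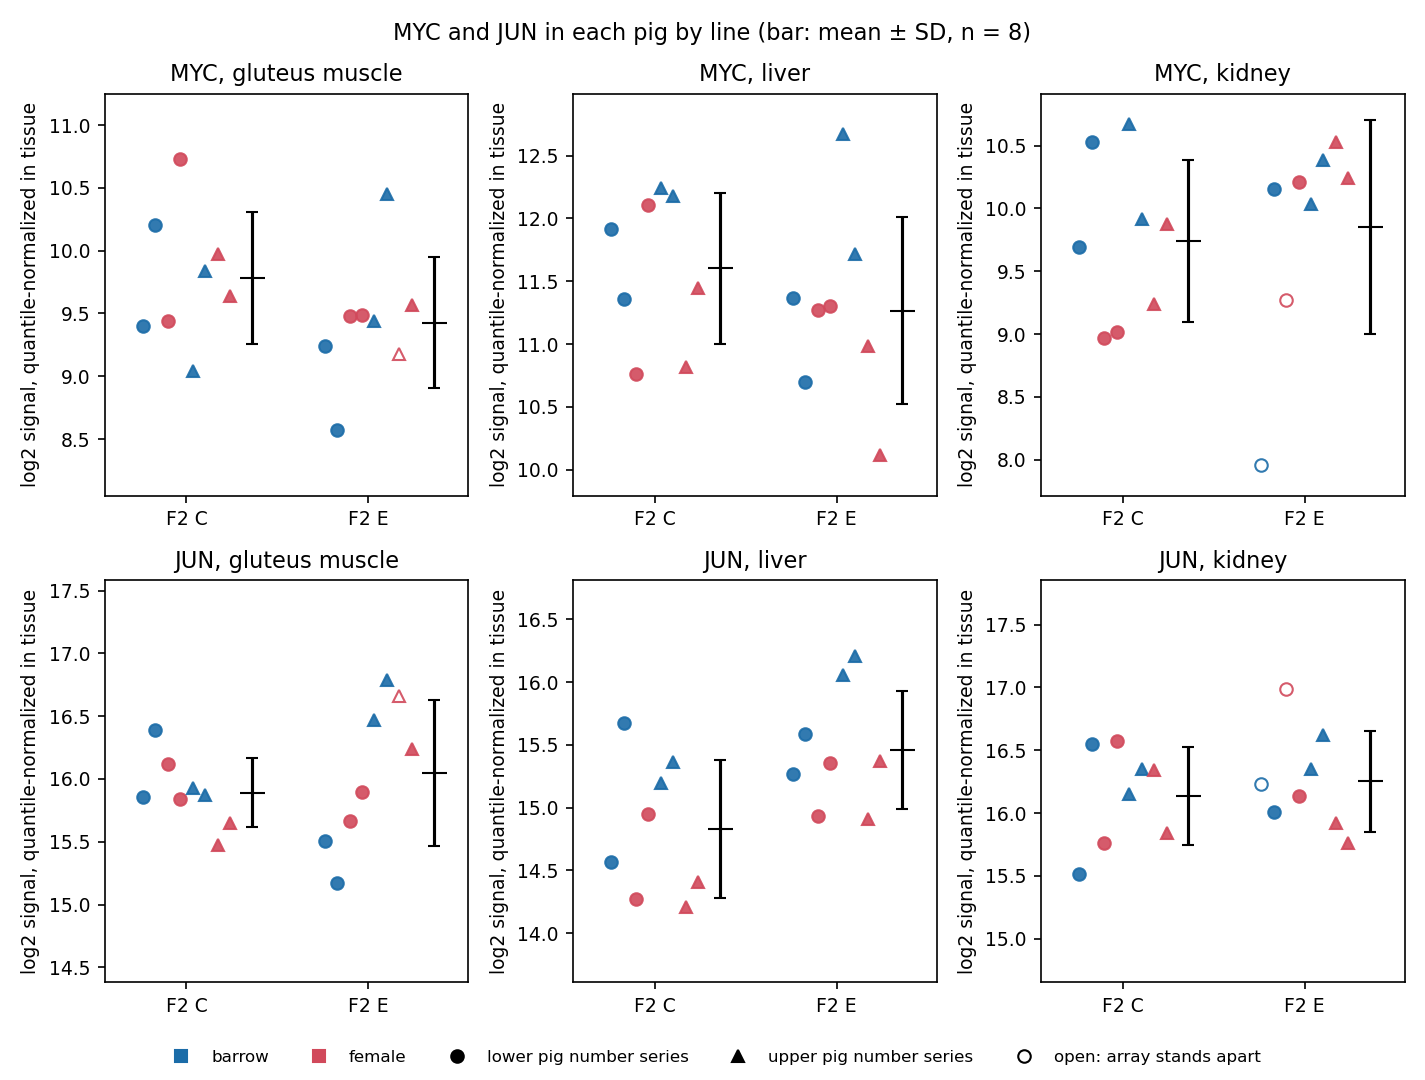
Log2 signal of MYC and JUN (vertical axes, quantile-normalized within each tissue) in the F2 C and F2 E offspring, 8 pigs of each line, with the mean and SD as a line and bar. In liver the JUN values of the F2 E pigs ran from 14.91 to 16.20, and those of the F2 C pigs from 14.21 to 15.68; the lines overlapped in all 6 panels.

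JUN differed most between the lines in liver, where its lowest, median and highest values were 14.21, 14.76 and 15.68 in the F2 C and 14.91, 15.36 and 16.20 in the F2 E offspring. All 8 F2 E pigs lay above the F2 C median. The log2 ratio was 0.63 (SE 0.233, 95% interval 0.14 to 1.12, adjusted p = 0.455 in limma, unadjusted p of 0.0146, exact permutation p = 0.0292), so that it did not pass the correction over all probes. The unadjusted p was 0.0627 and 0.0624 with the signals scaled to the 75th percentile, and 0.147, at a ratio of 0.42, with marked spots removed before normalization. With sex as a covariate the SE fell to 0.172 and the unadjusted limma p to 0.00195, and the ratio was still not called (adjusted p = 0.234). In liver 8.29% of the probes had an unadjusted p below 0.05. On the 2 slides that held both lines the ratio was 0.31 and 0.53, and with the slide as a block 0.42 (SE 0.331, adjusted p = 0.666). The JUN ratio was 0.16 (adjusted p = 0.742) in GM and 0.12 (adjusted p = 1.00) in kidney, with the F2 C pigs at 15.48 to 16.39 and 15.52 to 16.58 and the F2 E pigs at 15.17 to 16.79 and 15.76 to 16.99. No change of the line difference between tissues was called for either gene (adjusted p = 0.811 for JUN between liver and GM, the lowest of 6), where 0.122% of the probes were called between liver and GM, 0.0464% between kidney and GM and 0.0203% between liver and kidney.

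The small JUN ratio in GM was the mean of opposite differences in the 2 number series. In the lower series the F2 C pigs had log2 signals of 15.84, 15.86, 16.12 and 16.39 and the F2 E pigs 15.17, 15.50, 15.67 and 15.90. F2 E was thus lower by a mean of -0.49, with 1 F2 E pig inside the F2 C range. In the upper series the F2 C pigs had 15.48, 15.65, 15.87 and 15.93, and the F2 E pigs 16.24, 16.47, 16.66 and 16.79, so that every F2 E pig lay above every F2 C pig by a mean difference of 0.81. The difference between the series was 1.30 (SE 0.252, adjusted p = 0.00733 in limma), and 7.04% of the probes were called in the same comparison. Taken alone, the difference in the upper series was called (0.80, adjusted p = 0.0347; 4.13% of the probes) and that in the lower series was not (-0.49, adjusted p = 0.204; 1.39%). The change between the series was called without any 1 pig, at 1.17 to 1.41, and without the GM array of F2 E replicate 2, at 1.26 (adjusted p = 0.0122). The 4 groups of 4 pigs were also the 4 GM slides, so that a difference between slides cannot be told apart from one between lines and series. For MYC in GM the line difference was -0.75 in the lower and 0.04 in the upper series (adjusted p = 0.315 for the difference). No such difference was called in liver or kidney, where the adjusted p of both genes was at least 0.738 and 0.104% and 3.5% of the probes were called.

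**Figure D3:**
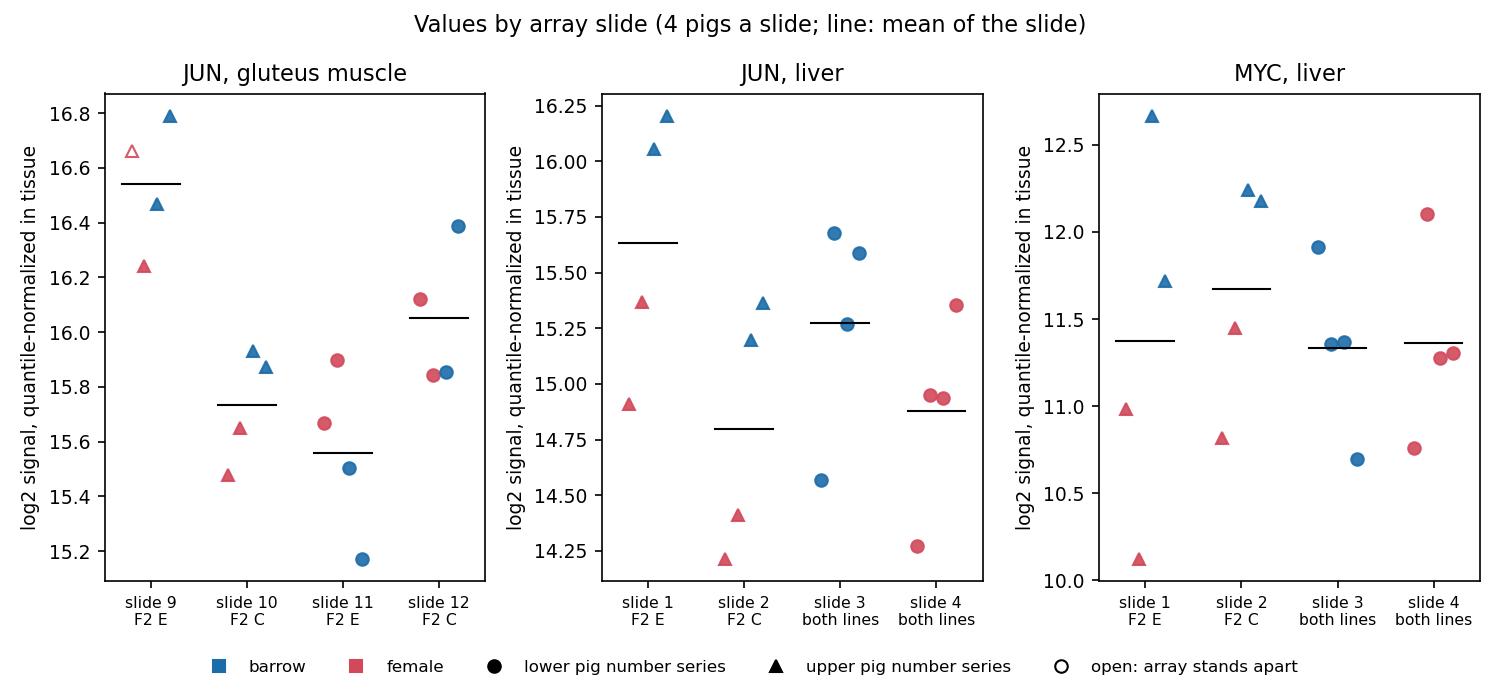
Log2 signal (vertical axes, quantile-normalized within the tissue) of JUN on the GM slides and of JUN and MYC on the liver slides, 4 arrays a slide, with each point 1 pig, barrows in blue, females in red, the lower number series as circles, the upper as triangles, and a line for the mean of the slide. In GM the JUN values of the upper F2 E slide, 16.24 to 16.79, lay above those of the upper F2 C slide, 15.48 to 15.93, and in liver barrows lay above females for both genes on the upper slides.

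Among the other genes of the lists, TFRC, the transferrin receptor and a target of MYC, was called between the lines in GM, where it was lower in F2 E by a log2 ratio of -1.58 (adjusted p = 0.00799). It was the only one of 30 measured list genes called there, and none of 31 was called in liver or in kidney, where 0.769% of all GM, 0.0937% of all liver and 0.0119% of all kidney probes were called. Between barrows and females no list gene was called, beside 0.121% of all probes in GM and in liver and 0.0921% in kidney. At such shares the absence of calls among 31 genes says nothing about the lists. The median log2 ratio of the 13 other immediate early genes was -0.09 in muscle, and that of 14 was 0.18 for liver and 0.05 for kidney, beside medians of -0.02, -0.02 and -0.01 over all probes.

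In liver the mean of both genes was higher in barrows than in females, without passing the correction over all probes. MYC in the barrows had a lowest, median and highest log2 signal of 10.70, 11.82 and 12.67, and in the females 10.12, 11.13 and 12.11. JUN had 14.57, 15.48 and 16.20 in the barrows and 14.21, 14.92 and 15.37 in the females. For each gene 7 of 8 barrows lay above the female median, and the sexes overlapped.

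The difference of barrow from female, with the line as a covariate, was 0.67 (SE 0.267, unadjusted limma p of 0.023, adjusted p = 0.281, exact permutation p = 0.0455) for MYC and 0.69 (SE 0.172, unadjusted p of 0.000915, adjusted p = 0.172, exact permutation p = 0.0166) for JUN, 1.59-fold and 1.61-fold. Only the limma values took the line into account, and the permutation tests compared the plain means of barrows and females. In liver 14.2% of the probes passed an unadjusted p of 0.05 between the sexes and 0.121% passed after adjustment, so that neither gene held after the correction over all probes. The JUN difference was 0.74 in F2 C and 0.64 in F2 E, and that of MYC was 0.64 and 0.69.

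In liver the slide allowed a closer look, because the 2 slides of the upper series each held barrows and females of 1 line. On the F2 E slide the barrows had MYC values of 11.72 and 12.67 and the females 10.12 and 10.99, a difference of 1.64. On the F2 C slide the barrows had 12.18 and 12.24 and the females 10.82 and 11.45, a difference of 1.08. JUN differed by 0.99 on the F2 E slide, with barrows at 16.05 and 16.20 and females at 14.91 and 15.37, and by 0.97 on the F2 C slide, with 15.20 and 15.36 against 14.21 and 14.41. On both slides each barrow lay above each female for both genes. With the slide as a block, which leaves the comparison to these 8 pigs, the difference was 1.36 (SE 0.315, unadjusted limma p of 0.000703, adjusted p = 0.441) for MYC and 0.98 (SE 0.222, unadjusted p of 0.000584, adjusted p = 0.398) for JUN, where 3.51% of the probes had an unadjusted p below 0.05 and 0.0972% were called.

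The lower series went another way for MYC. There the barrows had 10.70, 11.36, 11.37 and 11.91 and the females 10.76, 11.27, 11.30 and 12.11, a difference of -0.03. For JUN the lower barrows had 14.57, 15.27, 15.59 and 15.68 and the females 14.27, 14.93, 14.95 and 15.36, a difference of 0.40. In the lower series the barrows lay on 1 slide and the females on another, so that sex and slide cannot be told apart. The change of the sex difference between the series was 1.39 (SE 0.432, unadjusted limma p of 0.00586, adjusted p = 0.124) for MYC and 0.58 (adjusted p = 0.416) for JUN, where 1.66% of the probes were called.

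No difference between barrows and females was called in GM or kidney either. In GM the difference was -0.16 for MYC and 0.05 for JUN, and in kidney 0.25 and 0.06, with an adjusted p in limma of at least 0.998 for each, where 0.121% of the GM and 0.0921% of the kidney probes were called. In kidney the MYC difference was 0.93 in F2 C and -0.43 in F2 E, a line by sex difference of -1.36 (unadjusted p of 0.0499, adjusted p = 0.906). Without the 2 kidney arrays that stood apart, the difference over both lines was 0.47 (unadjusted p of 0.0516).

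Covariation of MYC and JUN over all pigs of a tissue was weak, and r varied between subsets of the pigs. Over 16 pigs Pearson's r between the 2 genes was 0.35 (permutation p = 0.19, rho 0.14) in GM, 0.30 (permutation p = 0.252, rho 0.22) in liver and -0.10 (permutation p = 0.714, rho -0.01) in kidney. Without the 2 pigs farthest from the median of MYC, r was 0.28, 0.25 and -0.30. In liver the line means of the 2 genes lay in opposite directions, and after subtraction of the line means r was 0.55 (permutation p = 0.0274). After subtraction of the means of each line and sex it was 0.29. Centred in these 2 ways, r was 0.44 (permutation p = 0.0851) and 0.52 in GM and -0.11 and -0.11 in kidney. Within F2 C and then F2 E, r was 0.02 and 0.69 (GM), 0.58 and 0.54 (liver) and 0.13 and -0.29 (kidney). Among barrows and then among females, r was 0.83 and -0.47 (GM), 0.02 and -0.04 (liver) and 0.21 and -0.48 (kidney). By number series, lower and then upper, r was 0.66 and 0.04 (GM), -0.14 and 0.47 (liver) and -0.04 and -0.17 (kidney). With the scanner's corrected signal r was 0.40, 0.51 and -0.43 in the 3 tissues. Without the arrays that stood apart, r was 0.49 (permutation p = 0.065) in GM and 0.08 in kidney.

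**Figure D4:**
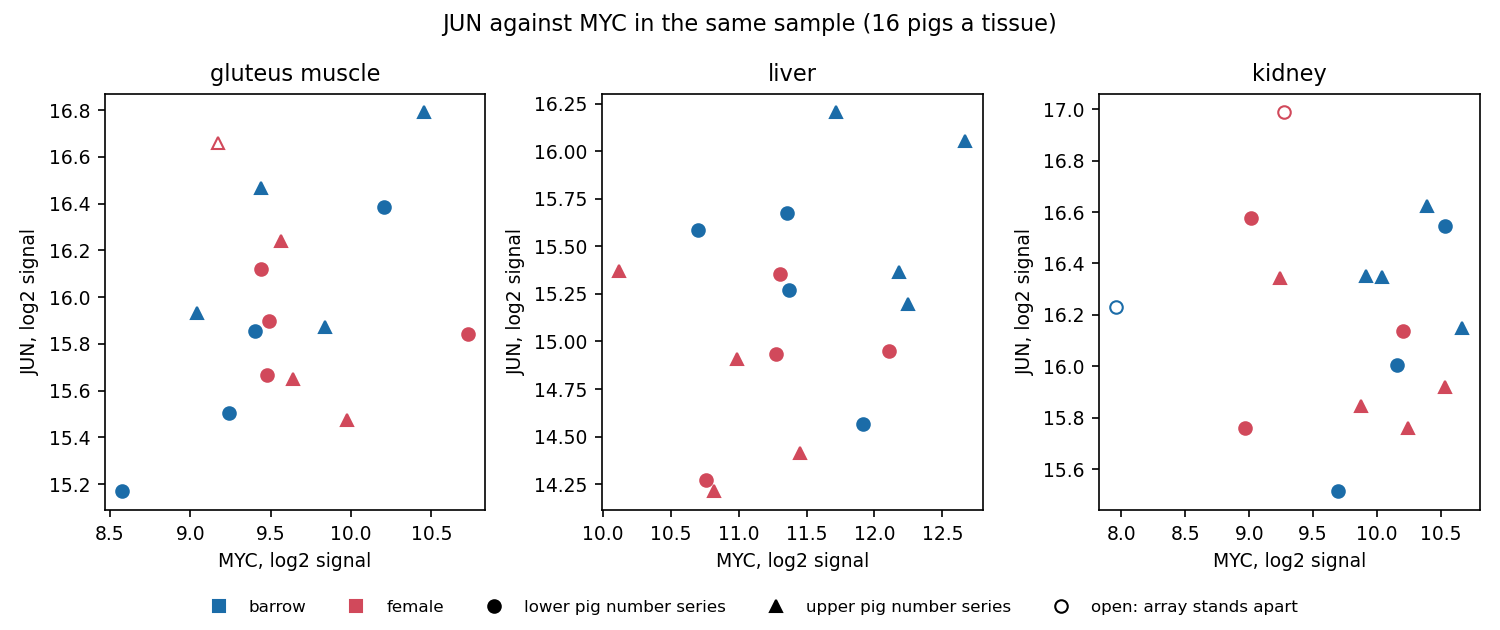
JUN against MYC (both log2 signal, quantile-normalized within each tissue) in the same sample, 16 pigs a tissue, with barrows in blue and females in red, pig number series by shape, and open symbols for the 3 arrays that stood apart. The points scatter, with r of 0.35 in gluteus muscle, 0.30 in liver and -0.10 in kidney.

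Between tissues of the same pigs, too, no relation passed. For MYC, r over the pigs was 0.24 (permutation p = 0.374) between GM and liver, -0.08 (permutation p = 0.754) between GM and kidney and 0.07 (permutation p = 0.802) between liver and kidney. For JUN it was 0.43 (permutation p = 0.0949, rho 0.43) between GM and liver, 0.06 (permutation p = 0.819) between GM and kidney and 0.39 (permutation p = 0.132, rho 0.40) between liver and kidney. With the 2 farthest pigs left out, the MYC values became 0.05, -0.03 and 0.15 and the JUN values 0.35, -0.01 and 0.40.

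JUN in GM and liver had the highest r of the 6. Without the pig whose GM array stood apart it was 0.52 (permutation p = 0.0446), but it was 0.76 in the upper and -0.21 in the lower number series, and in the upper series the F2 E mean lay above the F2 C mean by 0.81 in GM and 0.84 in liver. Over the 9 relations, within and between tissues, the Benjamini-Hochberg adjusted p was at least 0.567 for r and at least 0.559 for rho, so that none passed the correction. Arrays of the same pig had a correlation of 0.0301 in the fit over all probes.

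Next, every present probe was regressed on the signal of MYC or of JUN over the pigs of a tissue, with the line as a covariate, to ask which transcripts varied with them. In kidney 39.4% of the probes were called with MYC on all 16 arrays, 6931 with a positive and 6324 with a negative slope. Without the arrays of F2 E replicates 5 and 7 this fell to 3.43%, 744 positive and 411 negative. With JUN 2.07% of the kidney probes were called on all arrays and none without these arrays, where 6270 had an unadjusted p below 0.05 in limma. In GM 0.863% were called with JUN and none without F2 E replicate 2, where 3611 had an unadjusted p below 0.05. In GM with MYC, and in liver with either gene, limma called none, with 1257, 1400 and 911 probes at an unadjusted p below 0.05.

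Most of the kidney calls with MYC were thus lost without the 2 arrays that stood apart. On all arrays 16 of 31 list genes were called with it, a share of 51.6% beside 39.4% of all probes. They were led by BTG1, an antiproliferative factor, HIF1A, the oxygen-regulated factor, and PLAU, the urokinase, with r of 0.86, 0.85 and 0.85. VEGFA, a vascular growth factor, STAT3, a cytokine-activated factor, and HSPB1, a small heat shock protein, lay at the other end with -0.77, -0.77 and -0.69, and with -0.72, -0.78 and -0.56 without the 2 arrays. Without the 2 arrays 4 list genes were called, a share of 12.9% beside 3.43%, namely BTG1 (r of 0.81), HIF1A (0.80) and PLAU (0.69) with a positive slope and STAT3 (-0.78) with a negative one. All 14 or 16 points share their arrays, and the values are normalized to each other. The kidney arrays were also scored on their first principal component, the main axis on which they differed (46.3% of the variance). Of the arrays kept, the highest scores, 52.9, 35.9 and 33.6, belonged to F2 C females with MYC at 9.01, 9.24 and 8.97. The other arrays kept had scores of at most 3.68 and MYC at 9.70 or above. Whether the calls left without the 2 arrays follow this axis rather than MYC was not tested.

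Some markers of other cells were called with MYC in kidney, where 39.4% of all probes were on all arrays and 3.43% without the 2. DCN, the decorin of fibroblasts and the 1 fibroblast marker named of 4, had an r of 0.88 with MYC on all arrays and 0.86 without the 2 arrays (adjusted p = 0.00347 in limma). CDH5, the cadherin of endothelium, had 0.86 and 0.80 (adjusted p = 0.0239 without the 2 arrays), whereas PECAM1, the other endothelial marker named, had -0.54 and -0.30. DCN lay at a log2 signal of 12.32 to 14.59 over the kidney arrays and CDH5 at 10.04 to 12.25. None of the 3 blood and leucocyte markers named was called with MYC in kidney, and in GM and liver no probe at all was. Of the 4 adipocyte markers, FABP4 was called in kidney on all arrays (r of 0.63, adjusted p = 0.0216) and not without the 2 arrays (0.54, adjusted p = 0.169). The part that the share of these cells has in the MYC values was not tested. Nor was the part that the main axis of the kidney arrays has in the r of these markers.

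**Figure D5:**
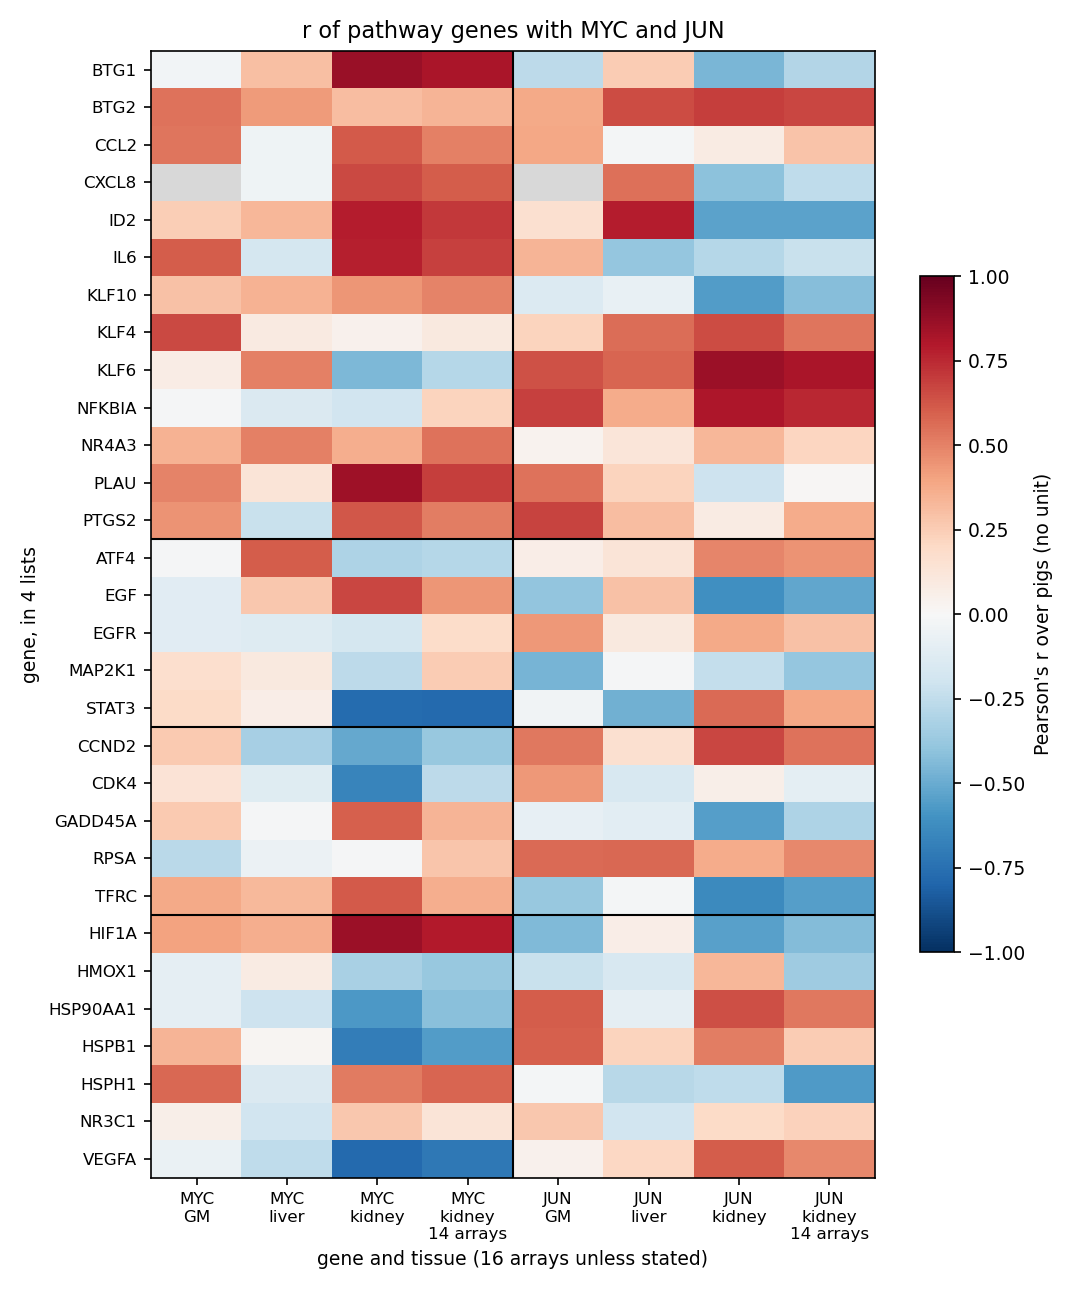
Heat map of Pearson's r over pigs (colour, from -1 in blue to 1 in red) of measured list genes, in rows by list, with MYC or JUN in gluteus muscle, liver and kidney, in columns, and in kidney also over the 14 arrays left without those that stood apart (grey, not measured). In kidney the r with MYC ran from -0.77 for VEGFA to 0.86 for BTG1, and in liver the highest r was that of ID2 with JUN, 0.79.

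In GM and liver no list gene was called with either member, and the values are given as a description. With MYC in GM, KLF4 (0.66) and IL6 (0.61), a cytokine, were among the 3 with the highest r, and the lowest belonged to RPSA (-0.27), EGF (-0.11) and EGFR (-0.11). With JUN in GM they were NFKBIA (0.68), the inhibitor of NF-kappa-B, PTGS2 (0.67) and KLF6 (0.64), against MAP2K1 (-0.46), HIF1A (-0.44) and EGF (-0.39). Without the GM array that stood apart these 6 values were 0.61, 0.69, 0.54, -0.24, -0.23 and -0.17, and those with MYC were 0.65 for KLF4, 0.59 for IL6, -0.22 for RPSA, -0.36 for EGF and -0.0036 for EGFR. Without the 2 farthest pigs, the 6 values with JUN were 0.43, 0.55, 0.42, -0.41, -0.37 and 0.16. Those with MYC were then 0.68 for KLF4, 0.51 for IL6, -0.47 for RPSA, 0.0038 for EGF and -0.07 for EGFR. In GM 11 of the 13 measured immediate early genes had a positive r with MYC, with a median of 0.45, and 11 of 13 with JUN, with a median of 0.38, where the median over all probes was 0.02 and 0.00. Over all the list genes, r with MYC and with JUN was positive for 21 and 20 of 30 in GM (medians 0.25 and 0.25). In liver it was positive for 17 and 19 of 31 (medians 0.07 and 0.13) and in kidney for 18 and 19 of 31 (0.27 and 0.19). These genes share the arrays and were listed with earlier results of the same arrays known.

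The liver had other genes at the ends. With MYC they were ATF4 (0.61), KLF6 (0.51) and NR4A3 (0.50) against CCND2 (-0.33), a cyclin, VEGFA (-0.25) and PTGS2 (-0.22). With JUN they were ID2 (0.79), BTG2 (0.65), an antiproliferative factor, and KLF6 (0.59) against STAT3 (-0.48), IL6 (-0.39) and HSPH1 (-0.28), a heat shock protein. Some of these values rested on few pigs. Without the 2 farthest pigs, those with MYC became 0.24, 0.55, 0.40, -0.23, -0.22 and 0.12, in the same order. Those with JUN became 0.64, 0.69, 0.50, -0.18, -0.54 and -0.23. In kidney KLF6 and NFKBIA had an r of 0.85 and 0.81 with JUN and were called on all arrays (adjusted p = 0.0397 and 0.044 in limma), and neither was called without the 2 arrays. The lowest r with JUN were those of TFRC (-0.64), EGF (-0.62) and KLF10 (-0.56). Without the 2 arrays the r with JUN was 0.82 for KLF6, 0.75 for NFKBIA, -0.55 for TFRC, -0.52 for EGF and -0.43 for KLF10. Values are those of the brightest probe of each gene. Different probes of a gene did not always go together: with MYC in kidney the 3 KLF6 probes had r of 0.60, 0.85 and -0.45.

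Over all 48 arrays, after subtraction of the mean of each tissue and line, 1329 named genes were ranked by their r with each member. The genes with the pattern most like that of MYC were FGL2 (0.74), CD1.1 (0.72), BCL10 (0.70), CD86 (0.69) and APOBEC3B (0.68). FGL2 is a fibrinogen-like protein, CD1.1 presents lipid antigens, BCL10 is a signalling adaptor of lymphocytes, CD86 a costimulator on antigen-presenting cells and APOBEC3B a cytidine deaminase. Without the 3 arrays that stood apart, FGL2 (0.69), CD1.1 (0.67), CD86 (0.62) and BCL10 (0.62) were still the first 4, and MAPRE1 (0.61) was the next. FGL2 had an r with MYC of 0.56 in GM, 0.63 in liver and 0.91 in kidney.

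Among the named genes, most like JUN were KLF6 (0.65), TNXB (0.62), NFKBIA (0.60), CERCAM (0.59) and BMP4 (0.56). KLF6 is a zinc finger factor and itself an immediate early gene, TNXB a tenascin of the matrix, CERCAM a cell adhesion molecule and BMP4 a growth factor. Of all 24205 probes ranked, named or not, 2 lay above KLF6 on all arrays and 14 without the 3 that stood apart. KLF6 was also the first without the 3 arrays (0.60), ahead of CERCAM (0.58), FASN (0.58), the fatty acid synthase, TNXB (0.56) and NFKBIA (0.55). By tissue, the r of KLF6 with JUN was 0.62 (GM), 0.53 (liver) and 0.85 (kidney). These values and its rank are those of the brightest KLF6 probe alone. The r of the other KLF6 probes with JUN is not given here. In liver r was 0.31 for TNXB, 0.33 for NFKBIA, 0.47 for CERCAM and 0.24 for BMP4, where each had 0.64 or more in GM and in kidney. The points of a tissue share the arrays and their normalization, so these values are a description.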

How the data were processed

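RNA of GM, liver and kidney of 16 F2 pigs was measured on 48 Agilent porcine arrays of 1 colour. The deposited scanner files hold spot intensities: the authors obtained them from the scans with Agilent's Feature Extraction (version 10.5.1.1 per the file headers), which gave the median pixel signal, a background-corrected signal and flags, not normalized between arrays. The deposited result tables hold the authors' ratios and p-values and were not used. The genome build behind the array design is not given in the sources used here, and no sequence of a probe or transcript was used.

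Here quantile normalization was applied to the median pixel signal, by tissue or, for tissue differences, over all 48 arrays, and log2 was taken. Control spots (1417 of 45220) and marked outliers were left out. Presence meant a signal above 25 that the software marked as well above background in 50% or more of a line's arrays, with 2 or more unmarked arrays per line. Accessions were named through RefSeq tables (2628 probes, 1862 genes). A probe has 1 value per array, whose precision is limited by the number of arrays.

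Lines and sexes were compared in limma 3.58.1 (R 4.3.3) with lmFit and eBayes, adjusted by Benjamini-Hochberg over all present probes. Tissue fits held pig as a random block. Exact two-sided permutation tests used all 6435 divisions of 16 pigs, and correlations 100000 two-sided permutations. The fits were tested on simulated data. Differences are on the log2 scale, and an adjusted p below 0.05 counted as a call. Pigs of a line are separate animals, compared as replicates, though some shared a sire, which the fits did not take into account. Same-numbered pigs of the 2 lines correlated above 0.1 in 2, 6 and 3 of 8 pairs in GM, liver and kidney and, since not all pairs did, were not paired.

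Named genes were the members, list genes called or with the 3 highest and 3 lowest r with each member, and the 5 genes most like each member; examples of tissue differences, KLF6 probes and cell markers were chosen after their values were seen. 1 list gene is not reported here by name, though the counts include it. Members and gene lists were chosen with earlier results of these data known. Comparisons by number series, with the slide as a block for sex, and of probes following a member were added after the data were seen.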

Additional observations from a re-analysis of the deposited data

Results flagged for a closer look

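The line difference of JUN in GM was 1.30 higher on the log2 scale in the upper than in the lower number series (adjusted p = 0.00733 in limma), and was singled out because the effect of line differed between 2 groups of pigs. Over the alternatives that kept the series apart its adjusted p lay between 0.00948, with sex as a covariate, and 0.0375, with the scanner's corrected signal scaled by its 75th percentile, where the difference was 1.21. By Dixon's test no sample of a member was called far from the others of its group. The nearest to the limit was MYC on the kidney array of F2 E replicate 7, at 7.96, whose gap to the next pig was 1.31 or 0.509 of the range of its group, just under the limit.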

How the results depend on the processing

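Of the line differences of the members, 88 of 94 alternative values kept their direction and their side of the threshold. The exceptions were MYC in GM in the upper number series (0.036), JUN in GM in the lower (-0.49) and the upper series (0.80, then called), MYC in kidney in the lower series (-0.15), and JUN in kidney in the upper series (-0.0059) and without the arrays that stood apart (-0.0038). The presence filters, marked spots kept, the t-test and terms for sex, series or replicate left each ratio itself unchanged. Their agreement in direction was thus fixed beforehand and is no sign of a stable result. No line difference of a member was called in the main fit, so keeping the side of the threshold meant staying uncalled. Without any 1 pig the line ratios lay at -0.50 to -0.22 (MYC) and 0.05 to 0.28 (JUN) in GM, -0.54 to -0.17 and 0.52 to 0.75 in liver and -7.7e-06 to 0.38 and 0.01 to 0.19 in kidney. In kidney the change of the line difference from the lower to the upper series reversed without the arrays that stood apart, to -0.25 for MYC and 0.020 for JUN. Without any 1 pig the change between the series lay at -0.36 to 0.49 for MYC in liver.

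The number of probes called between lines was 197 in muscle, 27 in liver and 4 in kidney. For GM it was 131 with no filter, 99 with well above background on all arrays, 126 by the methods' t-test, 5 with slide as a random block, 502 with the number series as a block, and 355 and 1116 within the lower and the upper series. In liver it was 9 with the median signal scaled to the 75th percentile, 16 well above background, 11 by the methods' t-test, 114 with slide as a fixed block, 46 with the series as a block and 60 in the lower series. In kidney it was 2 with the scaled median signal, 2 well above background, 1 with slide as a random block, 9 with the series as a block, 209 and 518 within the series and 7 without the arrays that stood apart. With the replicate block, the numbers being no pairing (median correlations of 0.044, 0.176 and -0.144 between same-numbered pigs), 42 probes were called in GM and 0 in kidney. It changed no call of a member. Without any 1 pig the counts were 88 to 196, 13 to 40 and 4 to 6.

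The sex difference reversed for JUN in kidney with the scaled background-corrected signal (-0.055) and in the lower series (-0.29), for MYC in GM in the upper series (0.10), for JUN in GM in the lower series (-0.15) and for MYC in liver in the lower series (-0.026). Without any 1 pig it lay at -0.057 to 0.19 for JUN in GM and -0.016 to 0.17 for JUN in kidney. Among tissue differences, that of JUN between kidney and GM was called at -1.47 and -1.27 with the scaled signals, -0.29 with pig as a fixed block (adjusted p = 0.0431) and -0.37 without the pigs whose arrays stood apart, and that between liver and kidney was lost at -0.35. Without any 1 pig the former lay at -0.38 to -0.23. Correlations of MYC with JUN in liver were 0.55 line-centred and 0.51 with the scaled signal, both past the threshold unadjusted, and -0.14 in the lower series, and in kidney 0.081 without the 2 arrays. For MYC, GM and liver had 0.69 in the lower and -0.10 in the upper series, and liver and kidney -0.14 in the lower. For JUN, GM and liver had -0.21 in the lower and 0.76 in the upper series, 0.52 with the scaled signal and 0.52 without the pig whose GM array stood apart, and GM and kidney -0.012 without the 2 farthest pigs. The cause of these shifts was not tested. In GM and kidney each slide held 1 line of 1 series, so that slide and the line difference by series cannot be told apart.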
